A study of Mus musculus with 12 samples.

Results

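Regulatory T cells (Treg cells) are the Foxp3-expressing lymphocytes that restrain other immune cells. The libraries described here record how such cells, with Batf targeted for deletion, responded to activation. They are the 6 KO libraries of the 12 in the series, 3 from cells stimulated for 48 h and 3 from unstimulated cells, and genes with at least 1 RPKM in 3 of the 6 were tested. That gave 9976 of the 24421 entries in the deposited table. RPKM is a gene's read count scaled by the length of its exons and by the number of reads assigned to genes in the library. The stimulated KO cells carried the genotype Foxp3CreBatffl/fl and came from C57BL/6 mice aged 7 weeks. They were held for 48 h on plates coated with antibodies against CD3, which carries signals of the T cell receptor, and CD28, its costimulatory partner (5 µg/ml), with IL-2, a growth factor of Treg cells, at 200 U/ml. The unstimulated KO cells had the same genotype, strain and age. The WT libraries, 3 stimulated and 3 unstimulated, share strain, age and stimulation, carry no named allele, and enter only where the 2 genotypes are compared. The allele name puts Cre under Foxp3, so Batf is removed in cells that have used Foxp3. The labels give no measure of how complete the removal was, and they do not tie the replicate libraries to separate mice. The p-values therefore rest on library-to-library spread, which may be technical. No culture of 48 h without antibodies is described, so the antibodies, the IL-2 and the time in culture cannot be told apart.

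A T cell whose receptor and CD28 are engaged leaves quiescence. NFAT, NF-kappaB and AP-1 factors act on cytokine and receptor genes, Myc raises nutrient uptake and synthesis, and the cell grows and divides. Batf is an AP-1 family factor that pairs with Jun proteins and binds DNA together with IRF4, and in Treg cells it is known for the effector and tissue-resident states.

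The stimulated KO libraries held between 27340975 and 32055383 reads assigned to genes, and the unstimulated ones between 22731823 and 26439126. The first principal component of the 6 libraries separated the states and carried 93.7% of the variance. The second carried 2.65%, and KO library 1 of either state stood apart from libraries 2 and 3 on it. Batf itself was at 26.5, 21.2 and 18 RPKM in stimulated KO libraries 1, 2 and 3, against 46.9, 33.0 and 25.9 RPKM in the unstimulated ones. WT libraries, for scale, held between 125 and 134 RPKM stimulated and between 90.0 and 103 RPKM unstimulated. Batf RNA was therefore under the WT range but not at 0 in every KO library, and library 1 was the highest in both states. The labels do not say which exons are floxed, so reads from remaining exons and reads from undeleted cells cannot be told apart. The 6 Treg markers Foxp3, Il2ra, Ctla4, Ikzf2, Cd4 and Cd3e summed to between 487 and 534 RPKM in stimulated KO libraries and between 743 and 870 RPKM in unstimulated ones. Markers of other cells were lower after stimulation. The 9 B cell markers in the table summed to between 4.08 and 8.44 RPKM stimulated and between 44.8 and 92.6 RPKM unstimulated, and the 16 myeloid and dendritic ones to between 78.6 and 80.1 RPKM stimulated and between 156 and 188 RPKM unstimulated. Most of either myeloid sum was Cst3, and the other 15 summed to between 1.57 and 2.17 RPKM stimulated and between 31.5 and 50.2 RPKM unstimulated. For CD8 T cells the sums were 3.62 to 4.90 against 15.6 to 18.1 RPKM, and for NK cells 1.63 to 1.88 against 5.55 to 10.8 RPKM. Erythroid and platelet markers summed to 0.0158 to 0.317 against 3.33 to 6.11 RPKM. The defining B cell factor Ebf1 was under 0.1 RPKM in all 6. The NK receptor Klra8 and the globins Hba-a1, Hba-a2, Hbb-bs and Hbb-bt were at 0 in all 12 libraries. Other markers of these lists were present in unstimulated KO libraries, among them Klrb1c at 2.02, 2.64 and 2.73 RPKM and Alas2 at 4.06, 2.69 and 4.99 RPKM. The absent markers therefore do not show that such cells were absent. In RNA from many cells, fewer cells of a type and less RNA per cell cannot be told apart.

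Most of the tested genes differed between stimulated and unstimulated Batf-deficient cells. Of the 9976 genes, 4509 were higher and 3433 lower in stimulated than in unstimulated KO cells, which is 79.6% of those tested (limma on log2(RPKM + 1), Benjamini-Hochberg adjusted p under 0.05, here called higher or lower). At least 2-fold changes were called for 1727 genes upward (17.3%) and 1313 downward (13.2%), 3040 in all (30.5%). All fold changes below are differences of log2(RPKM + 1), and the added 1 shrinks the fold of genes with little RNA. Of the 3040 genes, 3039 moved the same way in all 3 numbered libraries, against 8688 of all 9976 tested genes (87.1%). The 3040 were selected for large changes in these same libraries, so their agreement is no separate support. In 8090 genes (81.1%) the 3 stimulated and 3 unstimulated values did not overlap. The middle of the distribution was a log2 change of 0.13, with the central 90% of genes between -1.71 and 1.65. When libraries were rescaled so that the median gene was unchanged, the median moved by -0.13, named genes by between -0.07 and -0.16, and the split became 3963 higher and 3979 lower, 49.9% higher among called genes instead of 56.8%. Small changes in either direction are therefore read against that shift.

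Chemokines, cytokines and genes of growth led the increases. Only genes whose states did not overlap were eligible for the largest changes, so gaps between states are no separate support. Ccl4 (mm10, chromosome 11, bases 83662584 to 83664683, plus strand) and Ccl3 (chromosome 11, 83647843 to 83649378, minus strand) are neighbouring genes for chemokines that attract T cells and macrophages. Ccl4 was at 175, 303 and 259 RPKM in stimulated KO libraries 1, 2 and 3 and at 0.993, 0.467 and 1.43 RPKM in unstimulated ones, a log2 change of 6.97 ± 0.23 (SE, n = 3 each; adjusted p = 1.1e-11, limma). Ccl3 was at 114, 205 and 166 RPKM stimulated and at 0.332, 0.278 and 0.383 RPKM unstimulated, a log2 change of 6.89. Both were near the limit of detection at rest, and no unstimulated library came near a stimulated one. Il2, the T cell growth factor that Treg cells are known to make little of, was at 12.9, 37.7 and 41.8 RPKM stimulated and at 0.139, 0.140 and 0.160 RPKM unstimulated (log2 change 4.63, adjusted p = 4.5e-09, limma). Library 1 held the least stimulated Il2 RNA, and all 3 were above the unstimulated range. Ifng, the main cytokine of type 1 responses, was at 76.8, 227 and 136 RPKM stimulated and at 5.86, 7.22 and 6.14 RPKM unstimulated (log2 change 4.19). Library 1 was again the lowest of the stimulated 3. The marker lists hold no marker that sets apart CD4 T cells without Foxp3. A part of such cells in Il2 and Ifng RNA was not tested.

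The other 8 of the 12 largest increases were regulators and enzymes. Irf8, an interferon regulatory factor, was at 324, 413 and 390 RPKM in stimulated KO cells and at 19.96, 23.6 and 22.4 RPKM in unstimulated ones (log2 change 4.03). Egln3, a prolyl hydroxylase that acts on hypoxia-inducible factors, was at 41.8, 64.0 and 57.3 RPKM stimulated and at 0.832, 0.756 and 1.3 RPKM unstimulated (log2 change 4.81). Neither gene had a stimulated value near its unstimulated ones. Tfrc, the transferrin receptor that takes up iron, was at 192, 190 and 187 RPKM stimulated and at 10.9, 7.75 and 7.03 RPKM unstimulated (log2 change 4.34). Cdkn1a, which encodes the CDK inhibitor p21, was at 70.8, 66.0 and 57.0 RPKM stimulated and at 2.39, 1.74 and 2.07 RPKM unstimulated (log2 change 4.42). Their stimulated libraries lay close together. The fatty acid desaturases Fads2 and Scd1 rose by 4.53 and 4.42, the metallothionein Mt1, a metal-binding protein, by 4.44, and Cth, which makes cysteine from cystathionine, by 4.26 on the log2 scale. Scd1 varied most among these, at 77.3, 28.6 and 38.3 RPKM stimulated and at 1.47, 1.11 and 0.766 RPKM unstimulated. For Cth, Il2, Ccl3 and other genes under 1 RPKM at rest, the size of the fold depends on the pseudocount.

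**Figure D1:**
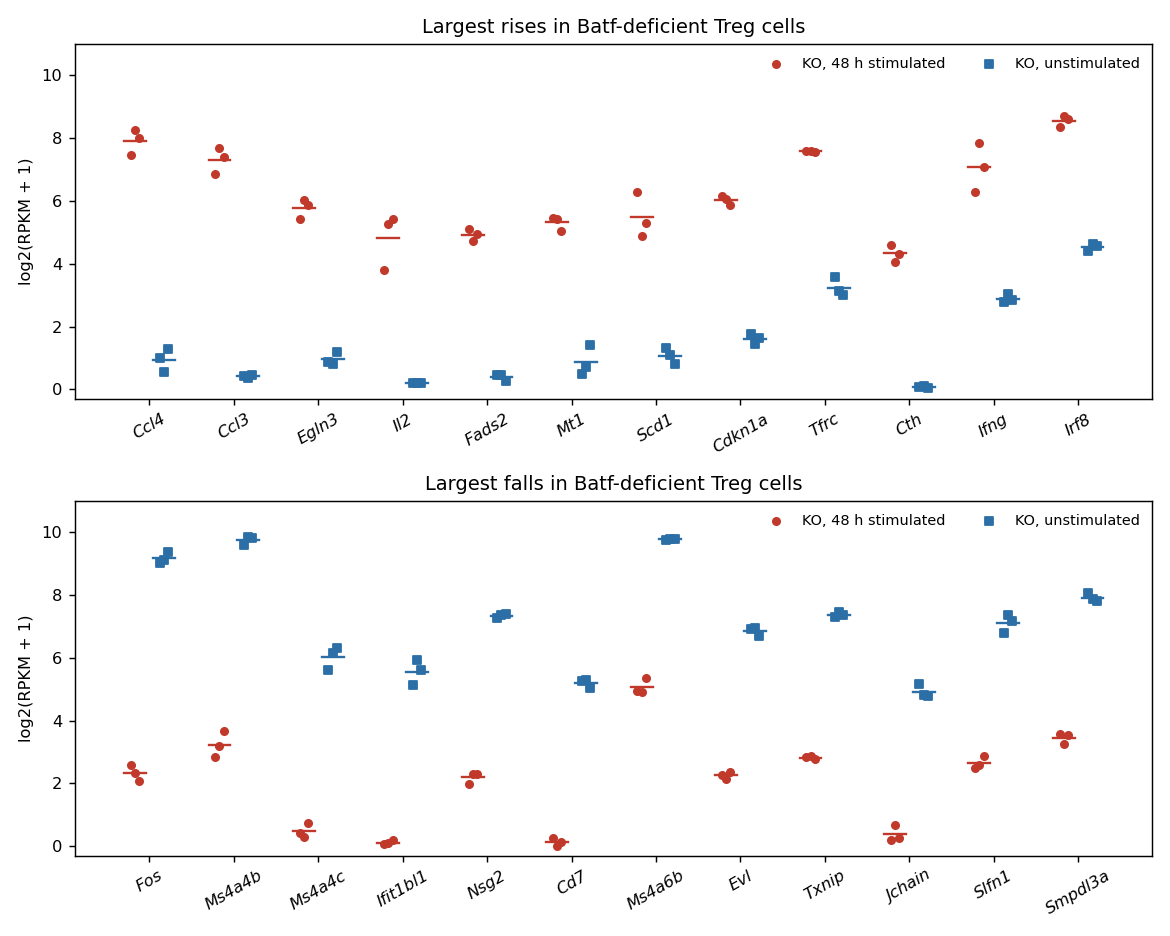
Log2(RPKM + 1) of the 12 genes with the largest rises (top) and the 12 with the largest falls (bottom), predicted genes left out, in Batf-deficient Treg cells, with 48 h stimulated libraries (circles) left of unstimulated ones (squares), 1 point per library and a bar at the mean. Ccl4 lies between 175 and 303 RPKM stimulated and between 0.467 and 1.43 RPKM unstimulated. Only genes whose groups did not overlap were eligible, which held for 81.1% of all tested genes.

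Fos showed the largest decrease. It encodes an AP-1 subunit made within minutes of many stimuli (chromosome 12, 85473901 to 85477270, plus strand), and was at 4.97, 4.07 and 3.23 RPKM in stimulated KO cells, against 516, 556 and 661 RPKM in unstimulated cells. The fall was by 6.84 on the log2 scale (SE 0.12, adjusted p = 8.9e-14, limma), and no stimulated library reached even 5 RPKM. A group of 3 neighbouring MS4A genes on chromosome 19, which encode membrane-spanning proteins, fell too. Ms4a4b was at 6.11, 8.02 and 11.6 RPKM stimulated and at 769, 912 and 908 RPKM unstimulated, and Ms4a4c and Ms4a6b had log2 changes of -5.54 and -4.70. Ms4a6b still held between 28.9 and 39.7 RPKM stimulated, against between 867 and 880 RPKM unstimulated, so it was not silent. Cd7, a T cell surface glycoprotein, was at 0.203, 0 and 0.0900 RPKM stimulated and at 37.7, 37.8 and 31.5 RPKM unstimulated (log2 change -5.06). Txnip, an inhibitor of thioredoxin and of glucose uptake, was at 6.08, 6.31 and 5.79 RPKM stimulated and at 157, 173 and 164 RPKM unstimulated (log2 change -4.55).

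Evl, an actin regulator, Nsg2, a vesicle protein described in neurons, Slfn1, a Schlafen gene tied to T cell quiescence, and Smpdl3a, a phosphodiesterase, fell by 4.60, 5.13, 4.47 and 4.46. Ifit1bl1, a gene of the interferon-induced IFIT group, was at 0.0445, 0.0616 and 0.131 RPKM stimulated and at 34.2, 59.2 and 47.5 RPKM unstimulated (log2 change -5.44). Jchain, which joins secreted antibodies and is a product of antibody-secreting cells, was at 0.151, 0.609 and 0.208 RPKM stimulated and at 34.8, 27.2 and 26.5 RPKM unstimulated (log2 change -4.53). Beside it the B cell marker Cd79b was at 6.24, 2.35 and 2.94 RPKM stimulated and at 65.8, 31.4 and 33.8 RPKM unstimulated, and the part of such cells in the fall of Jchain was not tested.

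The response can be followed through groups of genes with known roles, taken as 34 lists. The counts called at least 2-fold in each list are to be read against 17.3% higher and 13.2% lower of all tested genes. For counts called at any size the values over all tested genes were 45.2% higher and 34.4% lower. Growth, division and cytokine lists lay well to the upper side, and quiescence, interferon and GIMAP lists to the lower. The members named include those with the smallest adjusted p in these same libraries. Their close replicates and gaps between states are therefore no separate support.

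**Figure D2:**
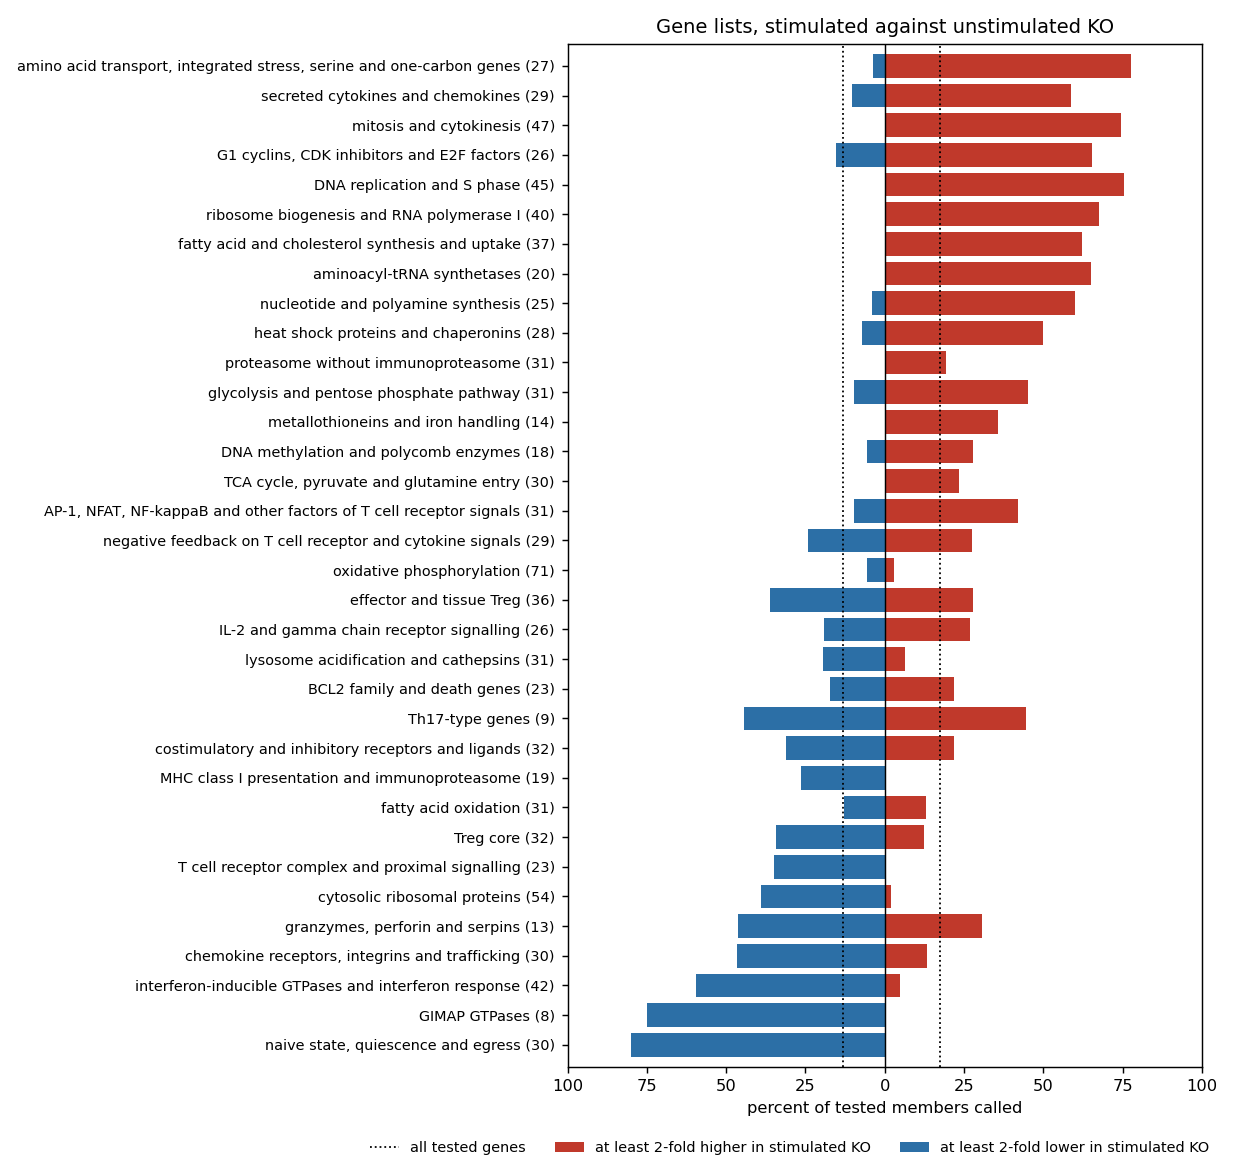
Percent of the tested members of each of the 34 gene lists (number tested in parentheses) called at least 2-fold higher (right) or lower (left) in stimulated against unstimulated KO cells, ordered by median log2 change, with dotted lines at the values for all tested genes, 17.3% and 13.2%. Amino acid and serine genes stand at the top with 21 of 27 members higher, and the naive state list at the bottom with 24 of 30 lower.

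Among 31 tested transcription factors of T cell receptor signals, 17 were higher and 8 lower, 13 and 3 of them at least 2-fold, with a median log2 change of 0.37 against 0.13 over all genes. Irf4, the partner of Batf on DNA, was at 181, 184 and 181 RPKM in stimulated KO cells and at 34.3, 28.5 and 24.3 RPKM in unstimulated cells (log2 change 2.62, adjusted p = 3.7e-11, limma). Myc, the regulator of growth, was at 172, 202 and 204 RPKM stimulated and at 29.9, 36.5 and 31.4 RPKM unstimulated (log2 change 2.53). Batf RNA was lower in these cells than in WT cells but present, and its part in either rise was not tested. The AP-1 family split by member. Atf3, Batf3 and Fosl1 rose by 3.54, 2.29 and 1.75, Fosl2 rose by 1.13, Jund stood at 193 and 190 RPKM (adjusted p above the threshold), Junb was lower by -0.29, and Jun and Fosb were lower by -1.13 and -2.50. The receptor-induced nuclear receptors Nr4a1, Nr4a2 and Nr4a3 rose by 1.22, 1.48 and 2.26, and Egr2 rose by 1.60 while Egr1 was lower by -0.46. Nfkb1 and Nfkb2, the precursors of NF-kappaB subunits, rose by 0.78 and 1.15. The calcium-dependent factors Nfatc1, Nfatc2 and Nfatc3 had log2 values of -0.01, -0.16 and -0.07 and were not called. Prdm1, which encodes Blimp-1 and is a factor of effector Treg cells, rose by 1.38, though it averaged only 3.85 RPKM stimulated and 0.863 RPKM unstimulated.

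Genes of the T cell receptor complex and its proximal signalling fell on balance, with 16 of 23 lower and 4 higher (median log2 change -0.54). At least 2-fold, 8 were lower and 0 higher. The receptor chain Cd3g was at 167, 158 and 166 RPKM in stimulated KO cells and at 724, 696 and 712 RPKM in unstimulated ones (log2 change -2.11). The coreceptor Cd4 was at 82.2, 83.0 and 86.3 RPKM stimulated and at 227, 266 and 226 RPKM unstimulated (log2 change -1.50). Replicates of either gene lay close together within a state. Themis, a signalling adaptor of developing T cells, and the kinase Prkcq fell by 2.40 and 1.63. The 4 higher members were Cd5, Cd6, Lat and Malt1, with Malt1, a protease that carries receptor signals to NF-kappaB, the highest at a log2 change of 0.83. Cd5 and Lat rose by only 0.24 and 0.28, and after rescaling to the median gene 2 members of the list were higher and 17 lower.

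Negative regulators of these signals went both ways, with 13 of 29 higher and 13 lower (8 and 7 at least 2-fold). Dusp1, a MAP kinase phosphatase, was at 13.6, 16.4 and 15.5 RPKM in stimulated KO cells and at 243, 205 and 285 RPKM in unstimulated ones (log2 change -3.92). Dusp4, of the same family, was at 200, 178 and 181 RPKM stimulated and at 24.1, 31.6 and 30.5 RPKM unstimulated (log2 change 2.66). The 2 phosphatases thus moved in opposite directions, with no overlap between states in either. Zfp36, which destabilises cytokine mRNAs, Dgka, a diacylglycerol kinase, and Tnfaip3, the NF-kappaB inhibitor A20, fell by 3.07, 2.43 and 1.5. The cytokine signalling inhibitors Socs1 and Cish rose by 1.93 and 1.14, and the G protein regulator Rgs16 rose by 3.04 while its relative Rgs1 fell by 2.16.

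RNA of secreted factors rose widely. Of 29 tested cytokines and chemokines, 20 were higher and 6 lower, 17 and 3 at least 2-fold, with a median log2 change of 1.48. Lta, a TNF family cytokine, was at 521, 573 and 528 RPKM in stimulated KO cells and at 59.0, 56.8 and 68.0 RPKM in unstimulated ones (log2 change 3.12). Ccl1, the ligand of CCR8, was at 84.6, 51.4 and 65.0 RPKM stimulated and at 6.14, 3.05 and 4.34 RPKM unstimulated (log2 change 3.63). Library 1 was the highest for Ccl1, the reverse of Il2 and Ifng. Il10, an inhibitory cytokine of effector Treg cells, was at 13, 25.3 and 17.3 RPKM stimulated and at 7.06, 4.85 and 5.59 RPKM unstimulated (log2 change 1.48, adjusted p = 8.8e-06, limma), with no overlap between the states. Il3 averaged 11 RPKM stimulated and was listed at 0 in unstimulated libraries 2 and 3. The interleukin Il17a was at 1.11, 1.41 and 1.94 RPKM stimulated and listed at 0 in all 3 unstimulated libraries, so no fold is given, and it stayed far under the WT level given with the genotype comparison. Lif and Gzmb, a cytokine of the IL-6 family and a granzyme of killer cells and Treg cells, rose by 2.79 and 2.49. Ccl5, Il16 and Ebi3 fell by 3.31, 2.08 and 1.06, and Ebi3 encodes a subunit of the inhibitory cytokine IL-35. Ltb fell by 0.90, to 493 RPKM stimulated against 930 RPKM unstimulated.

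Receptors that set the threshold of activation went both ways, with 11 of 32 higher and 16 lower, 7 and 10 at least 2-fold (median log2 change -0.35). Tigit, an inhibitory receptor of Treg and NK cells (chromosome 16, 43648861 to 43664184, minus strand), was at 104, 84.1 and 82.9 RPKM in stimulated KO cells and at 17.2, 6.85 and 5.58 RPKM in unstimulated ones (log2 change 3.21, adjusted p = 6.5e-08, limma). Unstimulated library 1 held the most Tigit RNA at rest. Ctla4, which removes CD80 and CD86 from antigen-presenting cells (chromosome 1, 60909025 to 60915832, plus strand), was at 47.0, 55.4 and 50.5 RPKM stimulated and at 166, 121 and 121 RPKM unstimulated (log2 change -1.38). Its stimulated libraries were all under the unstimulated range. The TNF receptor genes Tnfrsf4 (OX40), Tnfrsf8 and Tnfrsf9 (4-1BB) rose by 1.18, 1.37 and 0.80, and Pdcd1 (PD-1) and the adhesion receptor Cd44 by 1.17 and 1.20. Slamf6, Cd96, Cd27 and Cd226 fell by between 2.21 and 3.05. Icos at 0.27 and Cd274 at -0.28 were not called.

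Genes of the Treg state were lower more often than higher. Of 32 tested core genes 9 were higher and 18 lower, 4 and 11 at least 2-fold (median log2 change -0.40). Foxp3, the defining factor of the lineage, was at 28.9, 27.2 and 26.4 RPKM in stimulated KO cells and at 54.2, 66.3 and 54.7 RPKM in unstimulated ones (log2 change -1.05, adjusted p = 7.3e-08, limma). Il2ra, the high-affinity IL-2 receptor chain CD25, was at 284, 261 and 235 RPKM stimulated and at 155, 152 and 131 RPKM unstimulated (log2 change 0.83). Foxp3 and Il2ra thus moved in opposite directions, each without overlap. Ikzf2, which encodes Helios, was at 10.9, 8.76 and 8.06 RPKM stimulated and at 14.9, 12.9 and 10.5 RPKM unstimulated, and its ranges overlapped (log2 change -0.42, adjusted p = 0.0046, limma). Izumo1r, the folate receptor of Treg cells, and the ectoenzymes Nt5e and Entpd1, which make adenosine, fell by 1.12, 1.24 and 1.13. Itgae, which encodes the integrin CD103, was at 1.73, 0.240 and 0.484 RPKM stimulated and at 29.7, 4.26 and 5.24 RPKM unstimulated, so library 1 carried most of it in either state.

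The effector and tissue Treg list split almost evenly, with 15 of 36 higher and 16 lower, 10 and 13 at least 2-fold. Its median log2 change of 0.07 became -0.07 when libraries were rescaled to the median gene. The higher members included Ccr8, a chemokine receptor of tissue and tumour Treg cells, at 155, 142 and 139 RPKM stimulated and 24.5, 31.7 and 30.2 RPKM unstimulated (log2 change 2.30), and the factors Nfil3 and Bhlhe40, which rose by 2.45 and 1.79. The lower members included the calcium-binding proteins S100a4, S100a6 and S100a10 and the receptors Klrg1, Il1rl1 (ST2, the IL-33 receptor) and Il1r2. Klrg1 averaged 0.183 RPKM stimulated and 8.55 RPKM unstimulated, and Il1rl1 averaged 0.465 and 6.14 RPKM. Maf, a factor of Il10-producing T cells, was at 1.5, 1.65 and 1.28 RPKM stimulated and at 14.2, 14.2 and 11 RPKM unstimulated (log2 change -2.51). Gata3 was lower by -0.47, and Pparg, the factor of adipose Treg cells, was at 3.43 and 2.76 RPKM and not called. Of 9 tested Th17-type genes 4 were higher and 4 lower. Ccl20, the ligand of CCR6, was the highest at 15.7, 31.3 and 34.1 RPKM stimulated against 0.545, 1.10 and 1.04 RPKM unstimulated.

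Genes of resting T cells fell together. Of 30 tested genes of the naive state, quiescence and egress 28 were lower and 0 higher, 24 of them at least 2-fold, with a median log2 change of -2.16. S1pr1, the sphingosine phosphate receptor that lets T cells leave lymph nodes, was at 11.4, 8.89 and 10.6 RPKM in stimulated KO cells and at 168, 186 and 172 RPKM in unstimulated ones (log2 change -3.97). Klf2, a factor that drives S1pr1, was at 24.9, 24.9 and 28.2 RPKM stimulated and at 136, 143 and 179 RPKM unstimulated (log2 change -2.50). Both genes fell, each with a wide gap between states. The naive T cell factors Tcf7 and Lef1 fell by 2.06 and 1.47, and Il7r, the IL-7 receptor, had a log2 change of -3.40. The 2 members not called were Foxo3 and Ccr7. Ccr7, which guides cells to lymph nodes, was at 217, 170 and 208 RPKM stimulated and at 214, 206 and 244 RPKM unstimulated, with overlapping groups (log2 change -0.16, adjusted p = 0.14, limma). Rescaling to the median gene gave -0.32, which was called, with limma's adjusted p between 0.0113 in that setting and 0.598 over the alternatives. All 8 GIMAP GTPases, small GTPases of lymphocyte survival, were lower, 6 of them at least 2-fold, from -0.43 for Gimap9 to -2.61 for Gimap4.

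Homing and adhesion genes followed this, with 20 of 30 lower and 7 higher, 14 and 4 at least 2-fold (median log2 change -0.96). Itgb7 and Itga4, which together form the gut-homing integrin, fell by 2.21 and 3.06, the gut-homing receptor Ccr9 by 2.32 and the tissue receptor Cxcr6 by 2.15. The higher members were Ccr8, Ccr4, Itgav, Cd44, Itgb1, Itgb8 and Gpr183. Ccr4, a skin and tissue homing receptor, averaged 29.9 RPKM stimulated and 8.39 RPKM unstimulated (log2 change 1.74).

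Cell cycle genes rose almost without exception. Of 45 tested genes of DNA replication and S phase 44 were higher and 0 lower (34 at least 2-fold, median log2 change 1.31), and of 47 genes of mitosis and cytokinesis 45 were higher and 0 lower (35 at least 2-fold, median 1.46). Rrm2, a subunit of the enzyme that makes deoxyribonucleotides, was at 216, 234 and 214 RPKM in stimulated KO cells and at 50.5, 42.3 and 40.7 RPKM in unstimulated ones (log2 change 2.29). Cdc45, part of the replicative helicase, was at 66.8, 65.1 and 65.3 RPKM stimulated and at 14.5, 13.4 and 13.7 RPKM unstimulated (log2 change 2.17). For both genes the lowest stimulated library was far above the highest unstimulated one. Orc1, of the origin recognition complex, led the S phase list at 2.58, and Gins3 was its only member not called. In mitosis the activator of the anaphase-promoting complex Cdc20 and the kinases Aurka and Plk1 rose by 2.68, 2.61 and 2.46. The proliferation marker Mki67 was at 5.96, 4.73 and 5.08 RPKM stimulated and at 1.99, 3.07 and 0.984 RPKM unstimulated (log2 change 1.11). Mki67 RNA was thus present before stimulation too. Pttg1, which encodes securin, was not called and was uneven, at 27.2, 25.2 and 10.5 RPKM stimulated against 22.3, 22.5 and 23.5 RPKM unstimulated.

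Of 26 tested G1 and E2F genes 19 were higher and 6 lower (17 and 4 at least 2-fold, median log2 change 1.31). The cyclins Ccne1 and Ccne2 and the factor Mybl2 rose by 2.60, 2.30 and 2.97. The E2F activators E2f1 and E2f3 rose by 1.46 and 1.99. The lower members were brakes on the cycle and one E2F. The pocket proteins Rb1 and Rbl2 fell by 1.14 and 1.94, and the CDK inhibitor Cdkn1b (p27) was lower by -1.65, the opposite of Cdkn1a (p21) described above. E2f2 was lower by -0.63.

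E2F factors drive S phase genes through sites near their starts, so promoters of the replication genes were searched. Sequences are those of RefSeq (GRCm38.p6), from 250 bases before to 50 after each gene's start, and both strands were searched for the E2F motifs TTTCCCGC and TTTGGCGC. A promoter was given for 37 S phase genes, and 11 of them (29.7%) held either motif, against 2 of 40 mitosis genes (5%), 3.8% of 7687 tested genes and 1.8% of all 27025 genes in the table. The stretches of 4 such genes are shown because their RNA rose together. They were chosen after their values were seen. Capitals mark the motif on the strand of the gene, so that the reverse complement appears as GCGGGAAA or GCGCCAAA. Cdc6 (chr11:98907991-98908042, plus strand) rose by 2.16, Mcm5 (chr8:75109338-75109389, plus strand) by 1.3, Mcm7 (chr5:138172019-138172070, minus strand) by 1.28 and Mcm6 (chr1:128359723-128359774, minus strand) by 1.08, and they encode a loading factor and 3 subunits of the replicative helicase.
Cdc6: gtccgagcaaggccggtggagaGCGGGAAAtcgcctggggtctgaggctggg
Mcm5: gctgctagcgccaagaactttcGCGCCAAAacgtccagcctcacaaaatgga
Mcm7: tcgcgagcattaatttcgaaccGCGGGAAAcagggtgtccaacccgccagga
Mcm6: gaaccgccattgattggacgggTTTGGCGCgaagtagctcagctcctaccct
The motif begins 138, 149, 165 and 47 bases before the start of Cdc6, Mcm5, Mcm7 and Mcm6 in that order. A match in these letters is a description and not a measured binding site.

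The series title names metabolic reprogramming, and metabolic genes divided by pathway. RNA of most genes of sugar use rose, and sugar use itself was not tested. Of 31 tested genes of glycolysis and the pentose phosphate pathway 21 were higher and 6 lower (14 and 3 at least 2-fold, median log2 change 0.72). Slc2a1, the glucose transporter GLUT1, was at 80.4, 67.5 and 65.2 RPKM in stimulated KO cells and at 22.7, 20.1 and 23.2 RPKM in unstimulated ones (log2 change 1.64). Hk2, which traps glucose in the cell, was at 10.2, 10.9 and 10.1 RPKM stimulated and at 1.15, 1.06 and 0.995 RPKM unstimulated (log2 change 2.46). Neither overlapped between states. The lactate exporter Slc16a3 led the list at 2.73, and Gapdh, of middle glycolysis, and Ldha, which makes lactate, rose by 1.43 and 1.44, to 2325 and 1992 RPKM stimulated. The lower members were Ldhb, Aldoc, Slc2a3, Taldo1, Pdk1 and Gpi1, and Hif1a was not called.

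Mitochondrial genes moved less. Of 71 tested genes of oxidative phosphorylation 30 were higher and 20 lower (70.4% called, against 79.6% of all tested genes). Only 2 (2.82%) and 4 (5.63%) were at least 2-fold higher and lower. The median log2 change of 0.08 became -0.08 after rescaling, with 20 higher and 25 lower. The 2 carriers of electrons around complex III, Cyc1 and Cycs, rose by 1.65 and 1.35, while Uqcrh, a small subunit of complex III, was at 360, 374 and 377 RPKM stimulated and at 925, 896 and 933 RPKM unstimulated (log2 change -1.31). In the TCA cycle and glutamine entry 18 of 30 were higher and 3 lower (7 and 0 at least 2-fold, median log2 change 0.41). Got1, which moves amino groups between glutamate and aspartate, was at 107, 118 and 109 RPKM stimulated and at 31.0, 24.7 and 27.0 RPKM unstimulated (log2 change 1.98). Gls2, a glutaminase, averaged 6.39 RPKM stimulated and 0.0972 RPKM unstimulated.

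Genes of fatty acid synthesis rose, while those of breakdown changed at least 2-fold about as often as all tested genes or less. Of 31 tested genes of fatty acid oxidation 8 were higher and 16 lower (4 and 4 at least 2-fold, 12.9% each way, against 17.3% and 13.2% of all tested genes; median log2 change -0.39). Cpt1a, which admits long-chain fatty acids to the mitochondrion, was at 7.62, 5.37 and 5.60 RPKM in stimulated KO cells and at 18.8, 12.3 and 10.5 RPKM in unstimulated ones (log2 change -1.02, adjusted p = 6.9e-05, limma). Library 1 was highest in both states, and the groups did not overlap. The subunits Hadha and Hadhb of the mitochondrial trifunctional protein fell by 0.76 and 0.92. The members at least 2-fold higher were the acyl-CoA synthetases Acsl3, Acsl4 and Acsl5, which activate fatty acids for several uses, and the nuclear receptor Ppard. By contrast 29 of 37 genes of fatty acid and cholesterol synthesis and uptake were higher and 3 lower (23 and 0 at least 2-fold, median log2 change 1.26). Fasn, the fatty acid synthase, was at 75.6, 77.1 and 71.2 RPKM stimulated and at 16, 17.2 and 15.9 RPKM unstimulated (log2 change 2.12). Cyp51, of the sterol branch, was at 117, 96.0 and 99.96 RPKM stimulated and at 12.2, 17.8 and 14.0 RPKM unstimulated (log2 change 2.76). Hmgcs1, near the head of that branch, rose by 2.39. The 3 lower members were Elovl5 and the cholesterol exporters Abca1 and Abcg1.

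Amino acid and one-carbon genes gave the highest median of the 34 lists, 1.53, with 24 of 27 higher and 1 lower (21 and 1 at least 2-fold). Slc7a5, the leucine transporter LAT1, was at 221, 212 and 205 RPKM in stimulated KO cells and at 40.5, 37.4 and 40.0 RPKM in unstimulated ones (log2 change 2.41). Shmt2, the mitochondrial enzyme that takes a carbon unit from serine, was at 303, 306 and 303 RPKM stimulated and at 76.6, 70.1 and 71.3 RPKM unstimulated (log2 change 2.05). Neither gene had overlapping states. Asns, which makes asparagine and is a target of ATF4, and Atf4 itself rose by 3.87 and 2.04, while Ddit3 (CHOP), another target of that pathway, fell by 2.04. For nucleotides and polyamines 21 of 25 were higher and 2 lower (15 and 1 at least 2-fold, median log2 change 1.08). Odc1, the rate-limiting enzyme of polyamine synthesis and a Myc target, was at 733, 829 and 835 RPKM stimulated and at 68.8, 65.0 and 63.2 RPKM unstimulated (log2 change 3.58, adjusted p = 1.8e-13, limma).

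**Figure D3:**
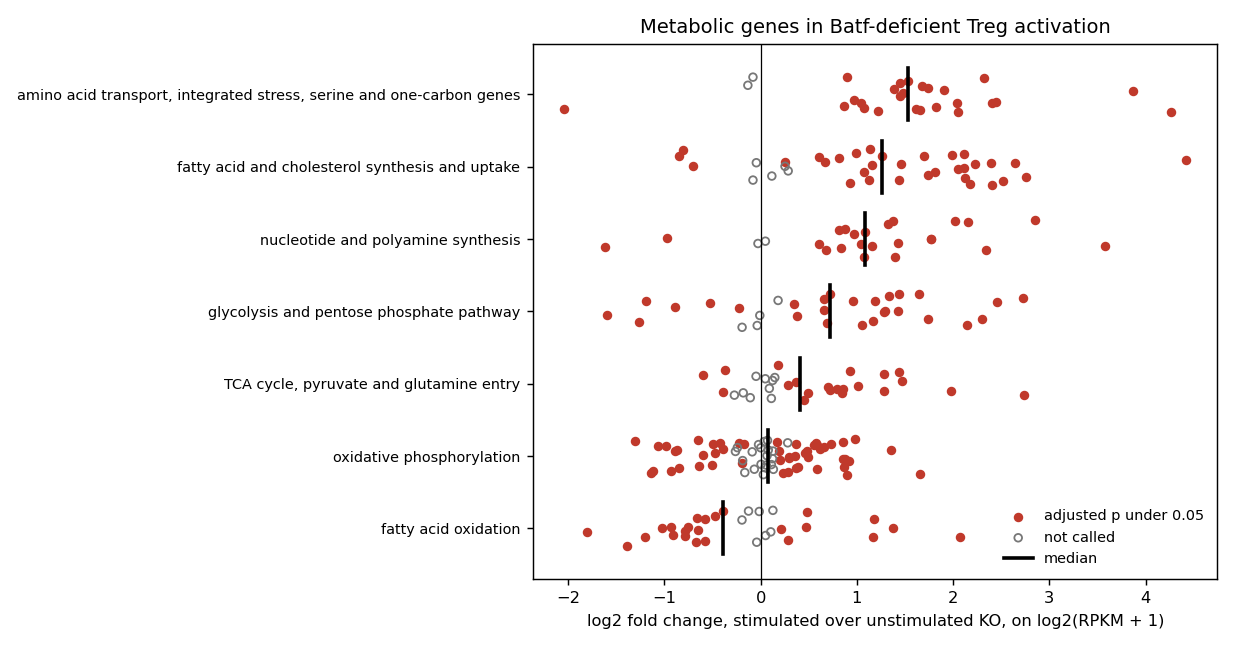
Log2 fold change of stimulated over unstimulated KO cells for the tested members of 7 metabolic lists, 1 point per gene, filled where the adjusted p was under 0.05 and open where not, with a bar at each list's median. Amino acid and lipid synthesis genes lie mostly right of 0 (medians 1.53 and 1.26), oxidative phosphorylation genes around it (0.08) and fatty acid oxidation genes left of it (-0.39).

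RNA of the machinery that makes ribosomes rose while RNA of the ribosomal proteins fell. All 40 tested genes of ribosome biogenesis and RNA polymerase I were higher (27 at least 2-fold, median log2 change 1.27), led by the nucleolar protein Gnl3 at 2.03. Of 54 tested ribosomal protein genes 45 were lower and 3 higher (21 and 1 at least 2-fold, median log2 change -0.80). Rps24 was at 1620, 1654 and 1544 RPKM in stimulated KO cells and at 5331, 5781 and 5051 RPKM in unstimulated ones (log2 change -1.74). Reads of the 55 listed ribosomal protein genes made up 7.69%, 7.73% and 7.72% of the stimulated libraries and 12.5%, 12.2% and 14.0% of the unstimulated ones. The 3 higher members were Rps2, Rpl30 and Rpl34, and ribosomal protein genes have many near-identical pseudogene copies, so the counts of single members such as Rpl30 and Rpl34, which were listed at far lower levels than the rest, are uncertain. Leaving out KO library 3 of both states reduced the members at least 2-fold lower to 13. Of 20 tRNA synthetases 19 were higher and 0 lower (13 at least 2-fold, median log2 change 1.16). Of 31 proteasome subunits 29 were higher and 1 lower, though only 6 by at least 2-fold (19.4%, near the 17.3% of all tested genes). Of 28 heat shock and chaperonin genes 24 were higher and 3 lower (14 and 2 at least 2-fold). The mitochondrial chaperone Hspd1 (HSP60) was at 622, 699 and 642 RPKM stimulated and at 120, 127 and 101.3 RPKM unstimulated (log2 change 2.49), whereas the stress-inducible Hspa1a and Hspa1b fell by 2.37 and 2.95.

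Interferon response genes fell. Of 42 tested members 32 were lower and 8 higher, 25 and 2 at least 2-fold, with a median log2 change of -1.60. Isg15, a ubiquitin-like protein, was at 5.41, 1.74 and 3.43 RPKM in stimulated KO cells and at 48.0, 48.8 and 73.0 RPKM in unstimulated ones (log2 change -3.73). Rtp4, an interferon-induced chaperone, was at 1.52, 1.60 and 1.94 RPKM stimulated and at 29.9, 30.1 and 37.8 RPKM unstimulated (log2 change -3.64). Both were lower in every stimulated library. Irf7, Ifit3 and Oas1a fell by 3.5, 3.90 and 3.69. The 8 higher members were Ubd, Irf1, Bst2 and the GTPases Iigp1, Irgm1, Irgm2, Igtp and Gbp5. Iigp1 and Irgm1 rose by 1.3 and 0.89, and Irf1 by 0.44. Ubd, a ubiquitin-like protein induced by TNF and interferon gamma, was at 21.2, 14.1 and 22.7 RPKM stimulated and at 2.0, 1.22 and 1.01 RPKM unstimulated (log2 change 3.07). The Gbp genes, 2 of which were not called, are relatives, and reads of the closest ones may be shared. Tgtp1 and Tgtp2 are near-identical copies, and their single values are uncertain.

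Interferon-stimulated genes are known to carry elements with repeated GAAA letters, so promoters were searched on both strands for an ISRE-type motif, GAAA and a second GAAA after a gap of any 2 bases. Of 31 genes of the list with a promoter 19 (61.3%) held it, and of the 18 that were at least 2-fold lower 9 (50%). The share was thus no higher among members that fell than over the list, and a part of the motif in the fall was not tested. For scale, it was in 3.9% of 7687 tested genes and 3.99% of all 27025 genes. Of 973 genes at least 2-fold lower 8.22% held it, and of 1345 at least 2-fold higher 2.38%. Stretches of 4 genes that fell are shown, chosen after their values were seen, with the motif, or its reverse complement with TTTC in place of GAAA, in capitals. Ifit3 (chr19:34583385-34583438, plus strand), Isg15 (chr4:156200853-156200906, minus strand), Oas1a (chr5:120907526-120907561, minus strand) and Ifit1 (chr19:34640782-34640835, plus strand) are antiviral effectors.
Ifit3: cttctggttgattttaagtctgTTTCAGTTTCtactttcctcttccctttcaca
Isg15: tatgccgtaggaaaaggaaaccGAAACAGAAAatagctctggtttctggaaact
Oas1a: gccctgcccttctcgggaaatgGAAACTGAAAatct
Ifit1: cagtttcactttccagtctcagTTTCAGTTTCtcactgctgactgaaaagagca
The marked letters begin 122, 66, 14 and 85 bases before the start of Ifit3, Isg15, Oas1a and Ifit1 in that order.

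RNA of genes of MHC class I antigen presentation fell with them in part, with 12 of 19 lower and 3 higher (5 and 0 at least 2-fold, median log2 change -0.38). B2m, the shared light chain, was at 1731, 1741 and 1711 RPKM in stimulated KO cells and at 6460, 6598 and 5803 RPKM in unstimulated ones (log2 change -1.86). The heavy chain H2-K1 was at 1243, 1117 and 1183 RPKM stimulated and at 2645, 2748 and 2891 RPKM unstimulated (log2 change -1.23). The H2 genes are close relatives, so reads may be split among them. The peptide transporter Tap1 was higher by 0.30 and Tap2 was not called.

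Survival, killing and degradation genes gave mixed lists. Of 23 BCL2 family and death genes 7 were higher and 10 lower (5 and 4 at least 2-fold, median log2 change -0.20). Bcl2l1, which encodes the survival protein BCL-XL, was at 91.6, 90.7 and 92.3 RPKM in stimulated KO cells and at 34.5, 30.1 and 32.6 RPKM in unstimulated ones (log2 change 1.47). Bcl2 and Mcl1, its relatives, fell by 1.79 and 0.72, and Bax, which promotes cell death at mitochondria, rose by 1.33. Of 13 granzyme and serpin genes 5 were higher and 7 lower (4 and 6 at least 2-fold). Gzmb rose as given above, while Gzma, another granzyme, averaged 2.29 RPKM stimulated and 17.5 RPKM unstimulated (log2 change -2.42). The NK cell marker sums given above fell as well, and their part in Gzma was not tested. Of 31 lysosome genes 12 were higher and 13 lower (2 and 6 at least 2-fold). The cathepsin Ctss was at 74.2, 76.2 and 76.3 RPKM stimulated and at 556, 501 and 485 RPKM unstimulated (log2 change -2.75), and Gusb, a lysosomal glucuronidase, rose by 1.87. Myeloid markers also fell, among them Lyz2 at 0.434, 0 and 0 RPKM stimulated and 15, 17.2 and 12.2 RPKM unstimulated, and their part in Ctss was not tested.

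Among IL-2 and gamma chain receptor genes 13 of 26 were higher and 11 lower (7 and 5 at least 2-fold), and the median log2 change of 0.06 became -0.09 after rescaling. The kinase Pim3 was at 53.5, 62.8 and 64.5 RPKM in stimulated KO cells and at 9.80, 7.49 and 11 RPKM in unstimulated ones (log2 change 2.56), and the shared chain Il2rg and the kinase Jak1 fell by 1.27 and 1.80. Of 18 DNA methylation and polycomb genes 11 were higher and 4 lower (5 and 1 at least 2-fold, median log2 change 0.59). Ezh2, the histone methyltransferase of dividing cells, rose by 1.51 and its relative Ezh1 fell by 1.58. Dnmt3b, a DNA methyltransferase, averaged 7.77 RPKM stimulated and 1.27 RPKM unstimulated (log2 change 1.95). Of 14 metallothionein and iron genes 11 were higher and 1, the ferritin chain Fth1, lower (5 and 0 at least 2-fold, median log2 change 0.64).

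How far this response differed from that of WT cells was tested as an interaction, the KO log2 change minus the WT log2 change in the same fit. WT cells gave 4509 higher and 3505 lower genes over the same 9976 (80.3%). A p that misses the threshold does not show that the responses were equal. The interaction was called for 422 genes (4.23%), 220 with a higher KO log2 change and 202 with a lower one, and 95 (0.952%) differed by at least 1 on the log2 scale, 52 upward (0.521%) and 43 downward (0.431%). Of the 3040 KO genes at least 2-fold changed 200 had a called interaction, and for 53 it was at least 1. In 94 of the 422 genes the KO and WT changes had opposite signs, and in 34 of these both changes were called. Of 12 largest rises 3 differed (Egln3, Il2 and Cth) and of 12 largest falls 1 (Jchain). The 45 S phase genes, the 31 glycolysis genes, the 71 oxidative phosphorylation genes and the 40 ribosome biogenesis genes held 0 called interactions. Fatty acid oxidation held 1, Acad11. In simulated data of 9805 genes the interaction test recovered 34% of 1.5-fold and 96% of 2-fold differences. There 9605 genes were unchanged and the same relative spread was set for every gene. These settings differ from the libraries here, so the rates do not tell how many differences the lists with 0 calls may hide.

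The genotypes also differed in sex-linked transcripts. All 6 KO libraries had 0 RPKM of the Y-linked genes Ddx3y, Eif2s3y, Kdm5d and Uty and between 1.07 and 2.42 RPKM of Xist. WT libraries 1 and 2 of both states held between 9.30 and 19.9 RPKM of Ddx3y, and WT library 3 at most 0.0548 RPKM. Without WT libraries 1 and 2 the interaction was called for only 9 genes with a higher and 13 with a lower KO change, and a single WT library per state then remained, assumed to vary like the KO ones. Of 21 named genes with an interaction of at least 1 in size, 8 were still called in that setting (Ubd, Itgb1, Serpina3g, Nrp1, Serpina3f, Ctla4, Maf and S100a4) and 13 were not, with interactions of the same sign. Other single libraries mattered too. Leaving out stimulated KO library 2 or 3, stimulated WT library 2 or unstimulated WT library 1, 2 or 3 brought the higher interactions to between 95 and 140 and the lower to between 78 and 118.

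**Figure D4:**
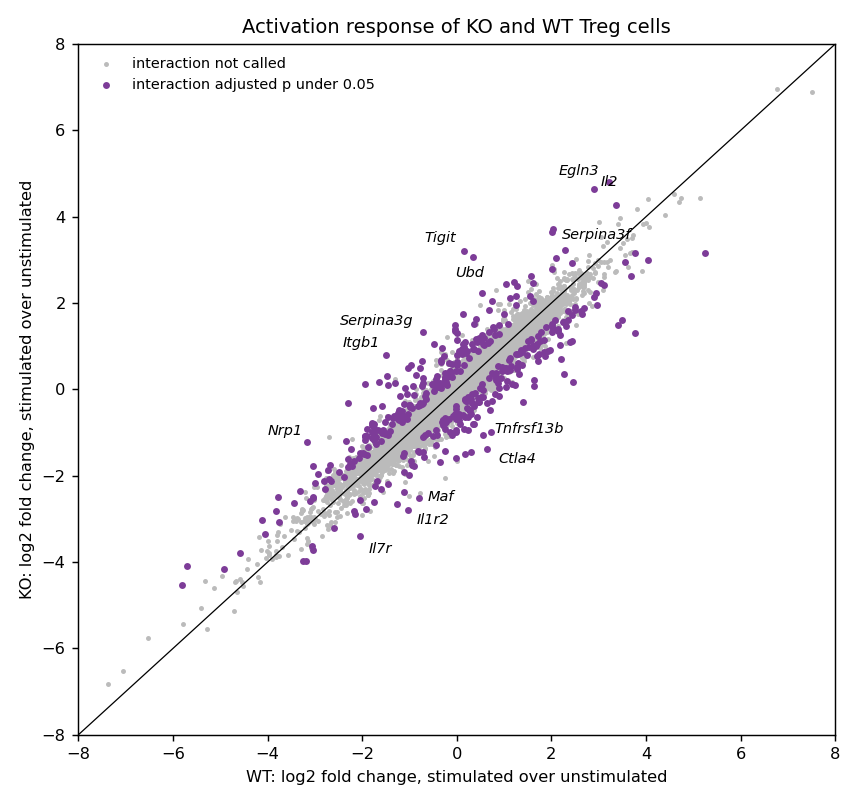
Log2 fold change of stimulated over unstimulated cells in KO (vertical) against WT (horizontal) for the 9976 tested genes, with the 422 genes of called interaction in purple and the line of equal response. Most genes lie along the line, with Tigit and Ubd above it at KO 3.21 and 3.07 against WT 0.16 and 0.34, and Ctla4 below it at KO -1.38 against WT 0.64.

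Among genes with a mean of at least 5 RPKM in KO cells whose KO change exceeded the WT change, Tigit and Ubd came first. Tigit rose in KO cells as given above, while WT cells held 138, 121 and 149 RPKM stimulated and 120, 133 and 112 RPKM unstimulated. The interaction was 3.05 (adjusted p = 0.00058, limma, and between 2.7e-07 and 0.14 over 22 alternatives, the largest without WT libraries 1 and 2). At rest no KO library exceeded 17.2 RPKM and no WT library was under 112 RPKM. Ubd stood at 0.449, 0.469 and 0.411 RPKM in stimulated WT cells and at 0.199, 0.138 and 0.0904 RPKM in unstimulated ones, far under the KO values, with an interaction of 2.73 (adjusted p = 6.2e-05, and not called by limma-voom at an adjusted p of 0.17). Itgb1, the beta 1 integrin (chromosome 8, 128685654 to 128733579, plus strand), was at 39.3, 39.9 and 38.5 RPKM in stimulated KO cells and 21.2, 24.3 and 20.7 RPKM in unstimulated KO cells, against 37.7, 42.8 and 46.4 RPKM in stimulated WT and 126, 108 and 127 RPKM in unstimulated WT cells. It rose in KO and fell in WT cells (interaction 2.30, adjusted p = 5.8e-07, limma), and the stimulated values of both genotypes met near 40 RPKM. Nrp1, a semaphorin receptor of thymic Treg cells, was at 8.37, 6.24 and 6.71 RPKM in stimulated KO, 20.2, 17.2 and 16.4 RPKM in unstimulated KO, 4.75, 4.36 and 5.44 RPKM in stimulated WT and 53.0, 48.6 and 52.6 RPKM in unstimulated WT cells. It fell in both, and by less in KO cells (interaction 1.94).

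The serine protease inhibitors Serpina3g and Serpina3f lie in a cluster of close copies on chromosome 12, and their reads may be shared. Serpina3g was at 110, 116 and 110 RPKM in stimulated KO and 49.3, 41.0 and 41.9 RPKM in unstimulated KO cells, against 29.9, 24.9 and 25.5 RPKM in stimulated WT and 43.1, 45.2 and 44.7 RPKM in unstimulated WT cells (interaction 2.04, adjusted p = 5.8e-07, limma). The genotypes overlapped at rest and did not overlap after stimulation. Serpina3f had an interaction of 1.69, with between 38.1 and 54.9 RPKM in stimulated KO and between 10.9 and 11.3 RPKM in stimulated WT cells. Il2 reached between 12.9 and 41.8 RPKM in stimulated KO and between 6.32 and 7.52 RPKM in stimulated WT cells (interaction 1.74, adjusted p = 0.036, limma), and 15 of 22 alternatives did not call it, with adjusted p between 4.4e-06 and 0.94. Ccl1 had an interaction of 1.62 that 10 of 22 alternatives did not call.

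Small nucleolar RNA genes aside, among genes with a mean of at least 5 RPKM in KO cells Ctla4 had the lowest KO change relative to the WT change. WT cells held 190, 251 and 198 RPKM stimulated and 130, 164 and 115 RPKM unstimulated, a log2 change of 0.64 where KO cells gave -1.38 (interaction -2.02, adjusted p = 2e-04, limma, and at most 0.024 over 22 alternatives). The unstimulated genotypes overlapped, and the stimulated ones lay apart. Tnfrsf13b (TACI, a receptor for BAFF and APRIL) and Gpr65, an acid-sensing receptor, also had opposite signs, with KO changes of -1.06 and -0.95 against WT changes of 0.56 and 0.24. The WT change of Gpr65 was not called (adjusted p = 0.078, limma). Il1r2, the decoy receptor for IL-1, was at 11.8, 6.83 and 9.21 RPKM in stimulated KO and 121, 48.5 and 55.3 RPKM in unstimulated KO, against 22.6, 18.4 and 21.4 RPKM in stimulated WT and 51.1, 39.9 and 40.0 RPKM in unstimulated WT cells (interaction -1.76, adjusted p = 0.02, limma, not called by 6 of 22 alternatives). Unstimulated KO library 1 was far above the others. Some interactions of scarcer genes were as large. Il17a, the cytokine that defines Th17 cells, was at 1.11, 1.41 and 1.94 RPKM in stimulated KO cells and 0 RPKM in unstimulated KO cells, against 10.7, 13.2 and 17.5 RPKM in stimulated WT and at most 0.109 RPKM in unstimulated WT cells. Its fitted interaction was -2.46 (adjusted p = 6.2e-05, limma, and not called by limma-voom at an adjusted p of 0.7), a value that depends on the pseudocount because the unstimulated KO libraries were at 0. For the related cytokine Il17f the means were 2.32 RPKM in stimulated KO and 0.062 RPKM in unstimulated KO cells, against 10.8 RPKM in stimulated WT and 0.0225 RPKM in unstimulated WT cells (interaction -1.89, adjusted p = 0.0012, limma, not called by limma-voom or without WT libraries 1 and 2). Both cytokines rose in KO cells, to levels under every stimulated WT library. Cxcl10, an interferon-induced chemokine, averaged 1.02 RPKM in stimulated KO and 1.495 RPKM in unstimulated KO cells, against 0.627 RPKM in stimulated WT and 7.02 RPKM in unstimulated WT cells (interaction 1.99, adjusted p = 0.00011, limma, called in all 22 alternatives).

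Maf fell in both genotypes and further in KO cells, with 11.2, 8.26 and 11.9 RPKM in stimulated WT and 20.9, 17.6 and 18 RPKM in unstimulated WT cells beside the KO values above (interaction -1.70, adjusted p = 0.00027, limma). Il7r showed the same order, with an interaction of -1.35 that 4 of 22 alternatives did not call. Plagl1, a zinc finger factor, was at 7.47, 5.65 and 6.61 RPKM in stimulated KO and 7.22, 5.84 and 3.76 RPKM in unstimulated KO, against 5.20, 6.90 and 8.70 RPKM in stimulated WT and 1.42, 1.94 and 1.20 RPKM in unstimulated WT cells. It rose in WT cells, and in KO cells the states overlapped and its change of 0.23 was not called (interaction -1.41).

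**Figure D5:**
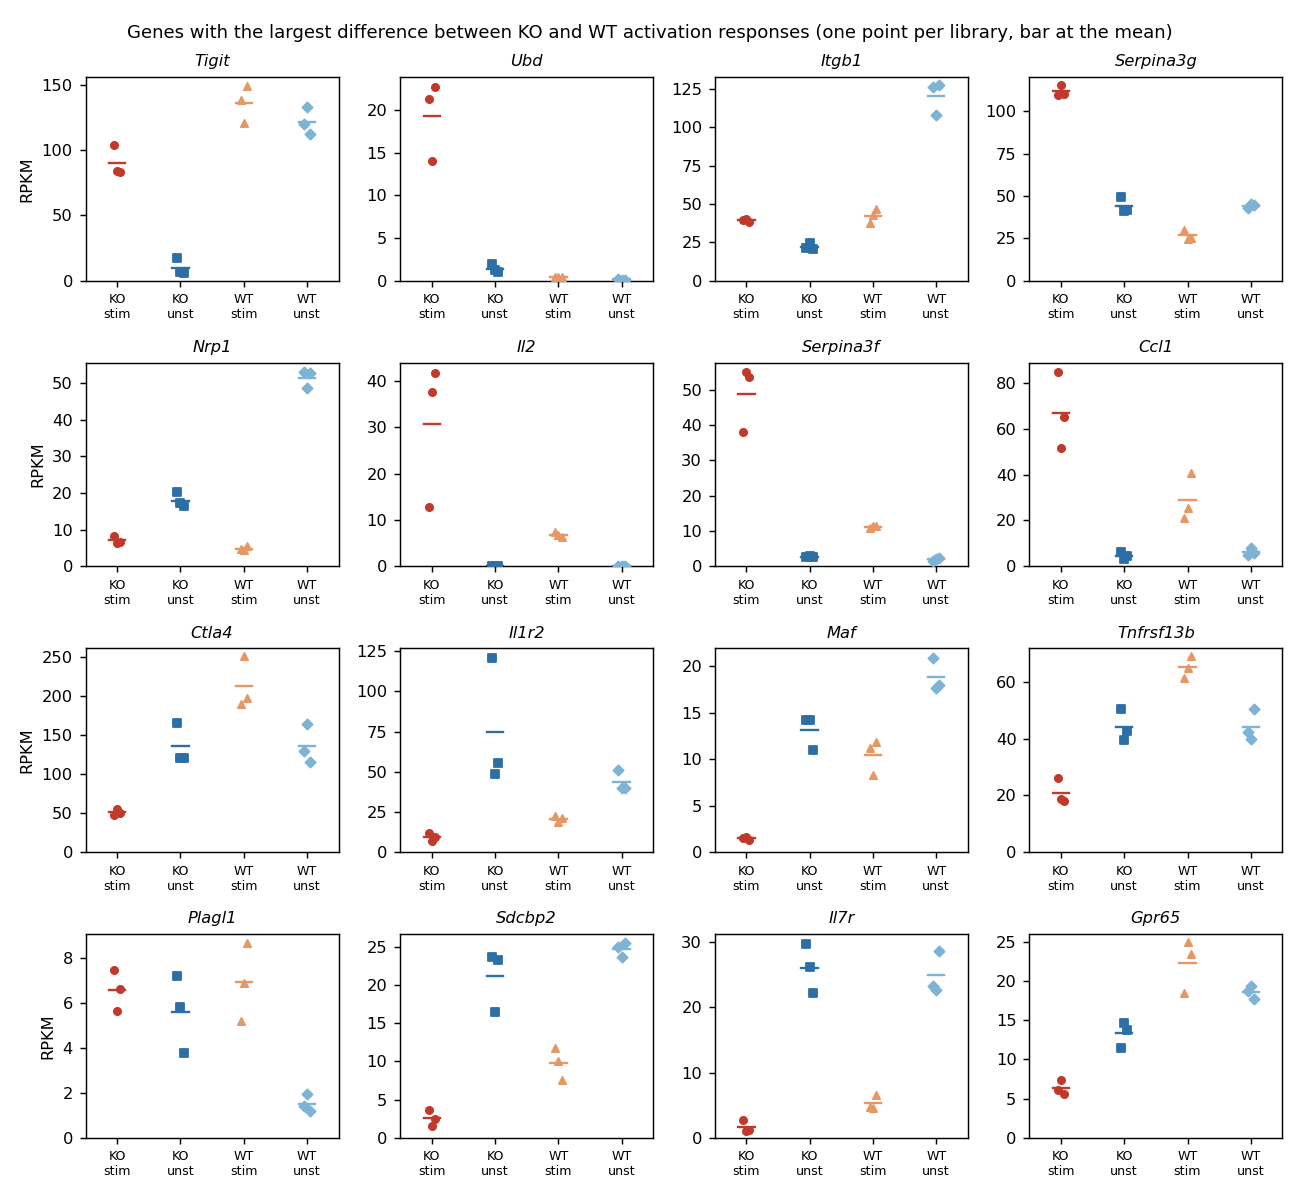
RPKM of the 8 genes with the largest positive (upper 2 rows) and the 8 with the largest negative interaction (lower 2 rows) among genes with a mean of at least 5 RPKM in KO cells, without predicted and small RNA genes, in stimulated KO, unstimulated KO, stimulated WT and unstimulated WT libraries, 1 point per library and a bar at the mean. Itgb1 stands near 40 RPKM in stimulated cells of both genotypes and between 20.7 and 24.3 RPKM in unstimulated KO against 108 to 127 RPKM in unstimulated WT cells.

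Batf itself showed the opposite signs seen for Ctla4. It changed by -0.64 in KO cells (adjusted p = 0.003, limma) and by 0.43 in WT cells, an interaction of -1.08 on low KO levels (adjusted p = 0.023, with 8 of 22 alternatives not calling it). Among lists, 32 costimulatory receptors held 8 genes with a higher and 2 with a lower KO change, 42 interferon genes 9 and 1, 36 effector and tissue Treg genes 7 and 6, 30 trafficking genes 6 and 1, 23 receptor complex genes 5 and 0 and 47 mitosis genes 0 and 4. The 9 Th17-type genes held 0 and 3, the 13 granzymes and serpins 4 and 2, the 29 secreted factors 6 and 3, the 32 Treg core genes 5 and 4 and the 30 genes of the naive state 1 and 4. Over all tested genes the shares were 2.21% and 2.02%. Dusp6, a MAP kinase phosphatase, Ccr4 and Gpr183, an oxysterol receptor that guides lymphocytes, were among single members with a higher KO change, at 1.44, 1.60 and 1.40. Klf2 fell less in KO cells (interaction 1.28) and S100a4 likewise (1.59).

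AP-1 factors bind TGANTCA, and its letters were looked for in the promoters of the genes above on both strands. Promoters were found for 9 of the 12 largest rises, 10 of the 12 largest falls and 15 of the 16 genes plotted for their interactions, and 0, 1 and 1 of them held the motif, against 5.52% of 7687 tested genes, 4.76% of those at least 2-fold higher and 7.3% of those at least 2-fold lower. In Ms4a4b it lay after the gene's start. The other was Sdcbp2, a syntenin family scaffold protein, whose stretch (chr2:151572557-151572607, plus strand) is shown with the motif in capitals, 44 bases before the start.
Sdcbp2: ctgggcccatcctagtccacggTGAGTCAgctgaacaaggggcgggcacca
Sdcbp2 was at 3.58, 1.60 and 2.48 RPKM in stimulated KO and 23.7, 16.5 and 23.3 RPKM in unstimulated KO, against 11.7, 10.0 and 7.58 RPKM in stimulated WT and 24.9, 23.7 and 25.5 RPKM in unstimulated WT cells (interaction -1.39). It fell in both genotypes and further in KO cells. No match in the other windows says only that these letters are not there.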

How the data were processed

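RNA was sequenced from Treg cells in 12 libraries, 3 in each of 4 groups. The authors deposited 1 table of RPKM values per gene with gene lengths and mm10 positions, per the file headers. The submitters' processing notes name FastQC, STAR, featureCounts of Subread and DESeq2, with no version or role. How strand and multiply matching reads were treated, and the annotation release, are not given here or in the file, so copies and antisense genes are uncertain. Values times length gave whole reads (within 0.01) in 100% of cases, which gave the depths.

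Groups came from the labels. Genes with at least 1 RPKM in 3 of 6 KO libraries were tested on log2(RPKM + 1) with limma 3.58.1 in R 4.3.3 (mean trend, 4 group means over 12 libraries, 8 residual degrees of freedom, Benjamini-Hochberg adjustment over all genes tested). The interaction came from the same fit. On simulated data (9805 genes) the KO comparison recovered 12% of 1.25-fold, 84% of 1.5-fold and 100% of 2-fold changes. There 9605 genes were unchanged and the same relative spread was set for every gene, so these rates need not hold here. Named genes were Batf, the 12 largest rises and falls without overlap and with a mean of at least 5 RPKM, the 8 largest interactions in each direction under the same mean limit, both without predicted and small RNA genes, up to 4 members of each list by adjusted p, and a fixed set of Treg and growth genes. Other list members were named after their values were seen. Members, lists and tests were chosen with earlier results of these data known, so patterns already seen in them are not independent support. In KO libraries the deviations of same-numbered stimulated and unstimulated libraries correlated across genes at 0.286, 0.197 and 0.115. The main test did not pair them, and a fit with same-numbered pairs as a block was an alternative. WT pairs gave 0.035, 0.115 and 0.027. No 2 libraries of a group agreed within counting noise (chi-square per degree of freedom from 5.67 to 38.0). Left out were 27 entries with date-like symbols (0.185% to 0.284% of reads). The other alternatives were the pseudocount, the filter, median-ratio rescaling, limma-voom on recovered reads, the KO libraries alone, and leaving out libraries. Some members of the lists are counted but not reported by name here.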

Additional observations from a re-analysis of the deposited data

Results flagged for a closer look

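For 21 named genes the KO and WT responses to stimulation differed by at least 1 on the log2 scale and by the test of the interaction itself (limma, adjusted p under 0.05; KO log2 change minus WT log2 change, n = 3 libraries a group). Another 13 named genes had a called interaction under 1 in size. The KO change was higher for Tigit by 3.05, Ubd by 2.73, Itgb1 by 2.3, Serpina3g by 2.04, Nrp1 by 1.94, Il2 by 1.74, Serpina3f by 1.69, Ccl1 by 1.62, Egln3 by 1.59, S100a4 by 1.59, Jchain by 1.29 and Klf2 by 1.28. It was lower for Ctla4 (-2.02), Il1r2 (-1.76), Maf (-1.7), Tnfrsf13b (-1.61), Plagl1 (-1.41), Sdcbp2 (-1.39), Il7r (-1.35), Gpr65 (-1.2) and Batf (-1.08). Of the 21, 7 were called in each of 22 alternatives, namely Ctla4, Itgb1, Maf, Nrp1, S100a4, Serpina3f and Serpina3g. Without WT libraries 1 and 2, which held Y-linked transcripts, 8 were called and 13 were not. Jchain stood between 61.0 and 104 RPKM in unstimulated WT cells, above the 26.5 to 34.8 RPKM of unstimulated KO cells, and 6 alternatives did not call its interaction (adjusted p up to 0.614).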

How the results depend on the processing

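The fold changes of 167 named genes in KO cells kept their direction and call under the alternatives run, except Ccr7, which was called after median-ratio rescaling. Most of these genes were named for large changes or small adjusted p in the same libraries, so their selection favoured this stability. KO counts stayed within 1.5 times of 4509 higher and 3433 lower. Leaving out libraries gave 4246 to 4539 and 3147 to 3454, and at least 2-fold 1673 to 1783 and 1288 to 1370. The replicate block gave 4550 and 3451 over 12 libraries and 4545 and 3422 in the KO libraries alone, and changed no KO call of a named gene. Interaction counts depended on single libraries. Leaving out libraries gave 83 to 262 higher and 78 to 299 lower, and of size at least 1, 36 to 64 and 29 to 50. Without WT libraries 1 and 2 they were 9 and 13, and 8 and 9 of size at least 1, with fewer samples by construction. A pseudocount of 0.1 gave 81 higher interactions of size at least 1, and the cause was not tested. The replicate block gave 244 and 240 interactions. Of 21 interactions 14 lost their call in 1 or more alternatives and 0 reversed. Depth limits genes under 1 RPKM in 1 state, whose folds depend on the pseudocount.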

Other observations

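Several KO changes were uneven between numbered libraries, and these genes were chosen after their values were seen. Cd80, a ligand of CD28 and CTLA-4, was at 12.0, 12.1 and 13.7 RPKM in stimulated KO libraries 1, 2 and 3 and at 14.0, 6.44 and 5.36 RPKM in unstimulated ones, so it was lower after stimulation in library 1 and higher in libraries 2 and 3 (log2 change 0.61, adjusted p = 0.054, limma). Nfkbid, an atypical NF-kappaB inhibitor, was at 8.28, 19.9 and 15.7 RPKM stimulated and at 26.8, 20.1 and 19.2 RPKM unstimulated, with its change almost confined to library 1. Gsta4, a glutathione transferase, was at 0.479, 1.15 and 0.554 RPKM stimulated and at 5.52, 19.4 and 16 RPKM unstimulated, and library 1 again held the odd value at rest.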
